A study of Mus musculus with 6 samples.

Results

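The haematopoietic cytokine receptors described here are Epor, Csf1r, Csf2ra, Csf2rb, Csf3r, Il3ra, Il6ra, Il1rl1 and Tek, a set of 9 genes taken by symbol from the 37074 gene names on the array. Every probe that carries one of these names and is not a control spot was used, which gave 18 of 56605 probes. All 9 genes and all 18 probes had signals well above background on 3 or more of the 6 arrays and were tested.

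The RNA came from LSK cells (lineage-negative, Sca-1-positive, c-Kit-positive) of mouse bone marrow, the fraction that holds HSCs and multipotent progenitors, sorted at P6 to P8 from C57BL/6 mice. Control mice were Atg5w/w with the Vav-iCre transgene and the others were Atg5f/f with the same transgene, so that both groups expressed Cre in the haematopoietic system. There were 3 arrays per group, 1 for each sample, and neither the labels nor the methods state whether a sample was 1 mouse or a pool. The n and the p-values therefore refer to the spread between arrays. Fewer cells of a type and less RNA per cell cannot be told apart in such bulk samples.

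Cytokine receptors tell a progenitor which lineage factors it can respond to. Csf2ra and Il3ra encode the ligand-binding alpha chains for GM-CSF and IL-3, and both pair with the common beta chain encoded by Csf2rb. Epor and Csf3r encode the homodimeric receptors for erythropoietin and G-CSF, and Il6ra the IL-6-binding chain that works with gp130. Csf1r and Tek are receptor tyrosine kinases for M-CSF and the angiopoietins, whereas Il1rl1 encodes ST2, the receptor for IL-33, and also a soluble form of it that lacks the membrane anchor. Epor is known for erythroid progenitors, Csf3r and Csf1r for myeloid cells, Il1rl1 for mast cells and basophils, and Tek for HSCs and endothelial cells.

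The bases before the start sites of Epor and Il1rl1 are shown because these genes had the largest positive differences by the brightest probe and because Gata1, whose protein binds GATA motifs, was higher on the same arrays. RefSeq promoter windows of 300 bases (GRCm38.p6) were searched for 7 of the 9 genes, with 2 windows for Il1rl1. No window of Csf1r or Csf2rb was searched, so the receptor counts below leave both genes out. The 250 bases before the start are printed, 5′ to 3′ on the gene's strand. Capitals mark a GATA motif on either strand, which was searched as an A or a T followed by GATAA, or in place of this by GATAG. The first line is chr9:21963577-21963826 on the minus strand, the second chr1:40429320-40429569 and the third chr1:40439379-40439628, both on the plus strand.
Epor: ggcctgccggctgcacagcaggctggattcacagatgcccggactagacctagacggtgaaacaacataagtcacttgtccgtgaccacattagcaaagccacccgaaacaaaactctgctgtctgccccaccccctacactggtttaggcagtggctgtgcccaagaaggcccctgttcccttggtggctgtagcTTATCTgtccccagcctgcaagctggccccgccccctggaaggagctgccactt
Il1rl1 at the upstream start: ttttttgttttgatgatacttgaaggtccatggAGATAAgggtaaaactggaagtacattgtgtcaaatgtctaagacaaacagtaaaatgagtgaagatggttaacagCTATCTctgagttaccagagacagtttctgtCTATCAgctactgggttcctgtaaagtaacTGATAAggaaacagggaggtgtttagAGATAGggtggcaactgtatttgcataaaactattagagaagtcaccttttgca
Il1rl1 at the downstream start: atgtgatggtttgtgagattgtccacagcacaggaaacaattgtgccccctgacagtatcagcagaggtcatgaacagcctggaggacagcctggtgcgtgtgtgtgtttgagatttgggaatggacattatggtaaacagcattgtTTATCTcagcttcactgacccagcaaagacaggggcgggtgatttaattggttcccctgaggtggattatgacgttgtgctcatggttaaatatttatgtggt
The Epor window held 1 match, 54 bases before the start, and the Il1rl1 windows held 5 and 1. At least 1 match lay in 6 of the 8 windows of these receptors, Tek, Il6ra and Il3ra among them, and in 29.8% of all 32851 promoter windows of the same length. The letters GAGGAA, a core bound by the myeloid factor PU.1, were searched on both strands as well and lay in 4 of the 8 windows (Csf2ra, Csf3r, Il6ra and the upstream Il1rl1 start), against 28.3% of all windows. A match is a string of letters, and binding was not measured.

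Signals are given as log2 relative to the array's 75th percentile, and differences as Atg5f/f;Vav arrays minus control. Over all 32075 probes tested, 34.4% were called by limma at an adjusted p of 0.05, with 17.3% being higher in Atg5f/f;Vav and 17.1% being lower. Of the probes called 50.3% were higher, and 25.0% with the percentile computed from only those probes that every array detected. Of the 18 receptor probes, 5 passed as higher and 0 as lower, namely both probes of Epor, 2 of the 4 for Csf2rb and 1 of the 3 for Il1rl1. The last of these was above background on 0 of 3 control arrays and the dimmer Epor probe on 1 of 3, so that both entered the test through the Atg5f/f;Vav arrays, and their calls add no support to the count. With each gene represented by its brightest probe, 2 of 9 receptors were called higher, Epor and Csf2rb, where the share over all 20778 genes was 18.7%, and 0 were called lower, where it was 15.3%. At an unadjusted p under 0.05, limma gave 3 receptors higher and 2 lower, and the methods' t-test 2 and 1. Of 9 receptors 2 were thus called, where 34.1% of all genes were. Overlap between groups was absent for 10 of the 18 probes, against 55.4% of all probes, and for 5 of the 9 brightest probes, against 55.9% of all genes. The median difference over the 9 receptors was 0.33 and that over all genes was -0.03. The former is the value of Csf1r alone, which was not called and whose other probe had the opposite sign. With 3 arrays against 3, an exact permutation test of a single probe cannot give a p below 0.1.

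**Figure D1:**
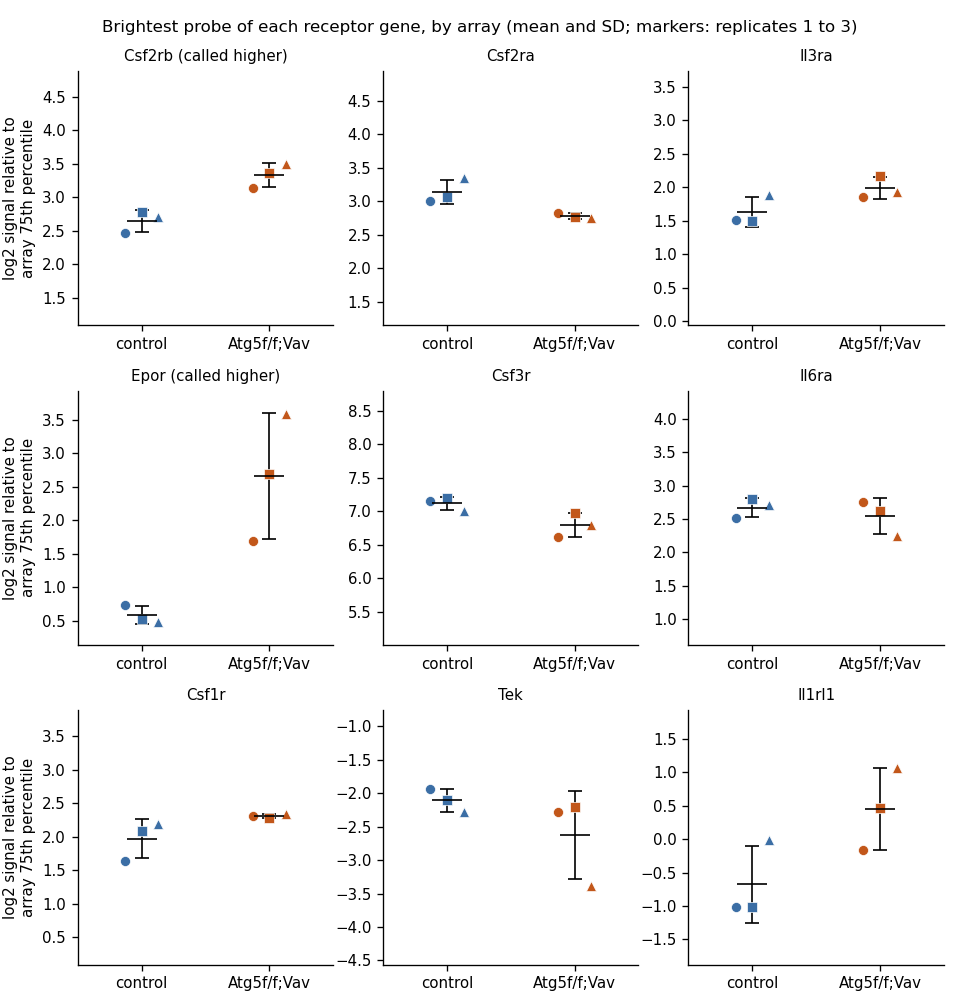
Log2 signal of the brightest probe of each receptor gene relative to the array's 75th percentile, with a point per array (circle, square and triangle for replicates 1, 2 and 3) and bars for the mean and SD of 3 arrays; every panel spans the same range. Epor and Csf2rb were called higher in the Atg5f/f;Vav arrays, with Epor going from 0.58 to 2.66 and Csf2rb from 2.65 to 3.34 in mean, and 3 of the other 7 genes also had groups that did not overlap.

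Epor showed the largest difference among the brightest probes. Its brightest probe starts at base 1690 of the transcript, at chr9:21763422-21763481 on mm9, and had log2 signals of 0.73, 0.53 and 0.48 in control and 1.70, 2.69 and 3.59 in Atg5f/f;Vav arrays. All 3 control arrays lay within a narrow range, whereas the Atg5f/f;Vav arrays were widely spread and all lay above. The difference was 2.08 (SE 0.43, adjusted p = 0.0181 by limma), or 4.23-fold. The second probe, at base 523, gave -4.51, -5.00 and -5.02 in control, where it was well above background on 1 of 3, and -3.05, -2.79 and -2.12 in Atg5f/f;Vav arrays. Its difference was 2.19 (SE 0.26, adjusted p = 0.00992 by limma). The second probe entered the test through the Atg5f/f;Vav arrays, so its size and p add no support to the brightest probe. With normexp background correction it differed by 0.89 (adjusted p = 0.00586 by limma). Without control replicate 1 the adjusted p of the brightest probe was 0.0681 with a difference of 2.16, and without control replicate 2 it was 0.0736 with a difference of 2.06, while that of the second probe was 0.0553 without control replicate 2.

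The 3 genes whose profile over the 6 arrays lay nearest to that of Epor, out of 18384 genes well above background on every array, were Slc40a1, Crip2 and Mylk3. Likeness was measured as the root mean square distance of the log2 signals after centring on the control mean, and it was 0.07, 0.13 and 0.13. Slc40a1 encodes ferroportin, the iron exporter of the plasma membrane, and gave -2.20, -2.44 and -2.56 in control and -1.22, -0.28 and 0.77 in Atg5f/f;Vav arrays. In each of these genes Atg5f/f;Vav replicate 3 was the highest, as it was for Epor. The genes were chosen for their likeness to Epor, so this shared order follows from the choice and adds no support.

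Of the 12 erythroid genes listed beside Epor, 4 were called higher and 4 lower, where 18.7% and 15.3% of all genes were. This list and the other marker lists below were chosen with earlier results of these data known. Their counts are therefore descriptions and not tests. Among those called higher, the transcription factor genes Gata1 and Klf1 differed by 3.001 and 2.95, and Car1, an early erythroid carbonic anhydrase, differed by 3.80. The 3 largest falls were those of Slc4a1 (band 3), Hba-a1 (alpha globin) and Alas2 (the erythroid enzyme of haem synthesis), with differences of -2.29, -2.26 and -2.07. All of these passed the threshold in limma. Gata1 was 2.90, 3.73 and 4.56 in Atg5f/f;Vav arrays against 0.87, 0.38 and 0.95 in control, so that its order among the Atg5f/f;Vav arrays was that of Epor. Hba-a1 instead was 6.00, 6.42 and 6.28 against 8.90, 8.84 and 7.72. The order of Epor was not particular to Epor and Gata1, since the brightest probes of Csf2rb and Il1rl1 had it too. Over the probes tested, replicate 3 of Atg5f/f;Vav was also the array least like control. It correlated at 0.952 to 0.962 with the control arrays, and replicate 1 of that group at 0.975 to 0.985. The summed linear signal of the 12 genes, in multiples of the 75th percentile, ran from 240.5 to 532 in control and from 103 to 172 in Atg5f/f;Vav arrays. The part of the erythroid content of the sorted cells in the Epor difference was not tested.

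**Figure D2:**
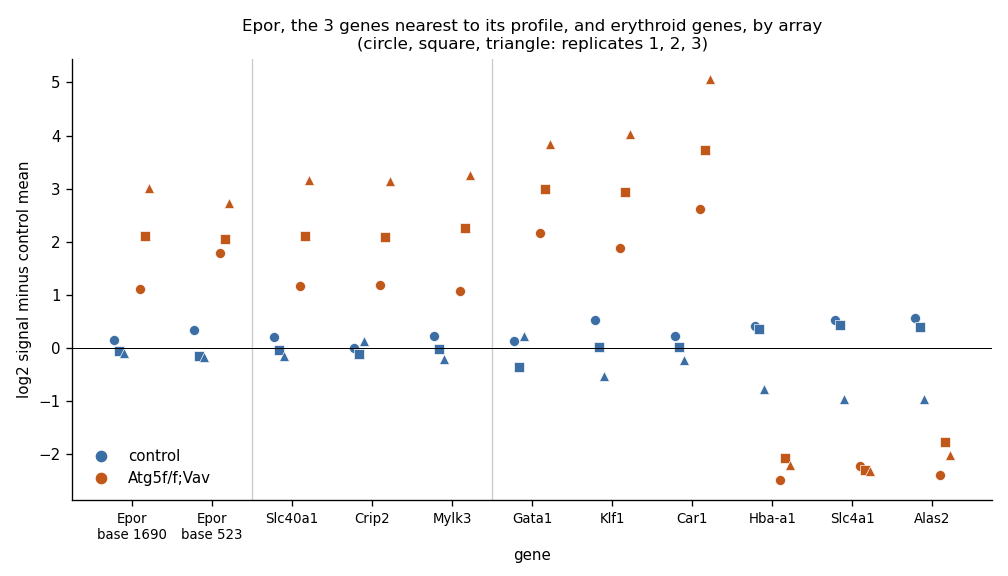
Log2 signal minus the control mean (y axis) on each of the 6 arrays for both Epor probes, the 3 genes nearest to its profile and 6 erythroid genes (x axis), in blue for control and orange for Atg5f/f;Vav, with circle, square and triangle for replicates 1, 2 and 3. Epor, its nearest genes, Gata1, Klf1 and Car1 were higher on all Atg5f/f;Vav arrays, and Hba-a1, Slc4a1 and Alas2 lower.

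Csf2rb, the shared signalling chain of the GM-CSF, IL-3 and IL-5 receptors, was called higher by 2 of its 4 probes. The brightest, at base 4501 (chr15:78181168-78181227 on mm9), gave 2.47, 2.79 and 2.70 in control and 3.14, 3.37 and 3.50 in Atg5f/f;Vav arrays. The difference was 0.68 (SE 0.14, adjusted p = 0.0185 by limma), a 1.61-fold rise without overlap between the groups. The probe at base 2783 differed by 0.60 (adjusted p = 0.0327 by limma), from a control mean of -0.51 ± 0.18 to 0.09 ± 0.24 (SD, n = 3). With any array other than replicate 1 of Atg5f/f;Vav left out, its adjusted p was 0.0576 to 0.114, and with the percentile described below for Csf2ra it was 0.0799. The probe at base 1625, which crosses an exon junction, differed by 0.16 (95% interval -0.23 to 0.56, adjusted p = 0.461 by limma), and a probe designed on a testis cDNA downstream of it by -0.48 (adjusted p = 0.204 by limma). Probes of Csf2rb thus disagreed, and with the mean of all 4 probes the difference was 0.24 (adjusted p = 0.25 by limma). The call of the brightest probe was also lost with quantile normalisation (0.41, adjusted p = 0.057) and without control replicate 1 (0.59, adjusted p = 0.0731) or control replicate 2 (0.75, adjusted p = 0.0698), all by limma.

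Csf2rb has a close paralogue, Csf2rb2, which encodes the IL-3-specific beta chain of the mouse, and their probes are near-identical in part. The most alike 30-base stretches of the brightest Csf2rb probe (its bases 30 to 59) and of the Csf2rb2 probe (its bases 12 to 41) are shown for this reason, with the 3 differing bases in capitals.
Csf2rb: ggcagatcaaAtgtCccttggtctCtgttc
Csf2rb2: ggcagatcaaGtgtTccttggtctAtgttc
The array's annotation also lists a Csf2rb2 transcript among the targets of the Csf2rb probe at base 2783, and none for the probe at base 1625, which was not called. Csf2rb2 had signals of 1.66, 1.75 and 1.64 in control and 2.14, 2.45 and 2.43 in Atg5f/f;Vav arrays. It rose by 0.66 (SE 0.13, adjusted p = 0.0167 by limma), and without control replicate 1 or 2 its adjusted p was 0.0689 or 0.0698. Within an array, the log2 ratio of Csf2rb to Csf2rb2 averaged 0.97 ± 0.14 (SD, n = 3) over the control arrays and 0.996 ± 0.08 (SD, n = 3) in Atg5f/f;Vav. How much of either signal came from the other gene was not tested, so the rise belongs to the pair and cannot be assigned to one of them from these probes.

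Neither alpha chain passed the test. Csf2ra, measured by 1 probe at base 1758 (chr19:61300336-61300395 on mm9), was 2.997, 3.07 and 3.34 in control and 2.83, 2.76 and 2.75 in Atg5f/f;Vav arrays. The groups did not overlap, but the difference of -0.36 (SE 0.13) did not pass, with an adjusted p of 0.0651 by limma. Il3ra was 1.51, 1.496 and 1.89 in control against 1.85, 2.17 and 1.93 at base 1287 (chr14:15187898-15187957 on mm9), and the groups overlapped. Its difference was 0.35 (95% interval -0.02 to 0.72, adjusted p = 0.114 by limma), and that of its second probe, at base 858, was 0.31 (adjusted p = 0.103 by limma), which became 0.43 (adjusted p = 0.0461) without control replicate 3. The ratio of 2 probes on the same array does not depend on the scaling between arrays. The log2 ratio of Csf2rb to Csf2ra was -0.53, -0.29 and -0.64 in control and 0.31, 0.60 and 0.75 in Atg5f/f;Vav arrays. This change of 1.04 had the smallest p that the exact permutation test can give, 0.1 (2-sided), or 0.2 after adjustment over the 4 ratios compared. Csf2rb was higher and Csf2ra lower on every Atg5f/f;Vav array than on any control array. The ratio therefore had to separate the groups, and this p adds no support. The Csf2rb signal used here is that of the brightest probe, whose rise could not be assigned to Csf2rb alone. The ratio of Csf2rb to Il3ra changed by 0.33 with overlapping groups (exact permutation p = 0.3, adjusted 0.4). Il5ra, the alpha chain for IL-5, differed by 0.15 (adjusted p = 0.706 by limma), or by 0.49 (adjusted p = 0.0317) without replicate 3 of Atg5f/f;Vav.

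Scaling between arrays, and an intensity trend in the fit, bore on Csf2ra and on Csf3r, the G-CSF receptor. Csf3r was at 7.16, 7.19 and 7.01 in control and 6.61, 6.98 and 6.80 in Atg5f/f;Vav arrays, again without overlap. Its difference was -0.32 (SE 0.13, adjusted p = 0.0949 by limma). With the 75th percentile computed from only those probes that every array detected, which moved the median of all probes from -0.06 to -0.27, the difference was -0.56 (adjusted p = 0.0169) for Csf2ra and -0.53 (adjusted p = 0.0264) for Csf3r. With quantile normalisation it was -0.62 (adjusted p = 0.0213) and -0.54 (adjusted p = 0.0352). With an intensity trend both passed at unchanged scaling and differences (adjusted p = 0.0347 and 0.0383 by limma). With normexp Csf2ra passed (adjusted p = 0.0479 by limma) and Csf3r did not (0.0603). The Csf3r probe, at base 3165 (chr4:125721478-125721537 on mm9), ends in a stretch that is shown because its capitals also match the B1 family of mouse repeats.
Csf3r, last 30 bases of the probe: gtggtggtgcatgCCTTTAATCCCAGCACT
These 17 letters occurred in 4 of the 56605 probes on the same strand, the Csf3r probe included, and in 1 on the opposite strand. The part of repeat-containing transcripts in the Csf3r signal was not tested.

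Granule genes of neutrophils and their progenitors, listed beside Csf3r, went both ways, with 4 of 12 called higher and 6 lower. The shares over all genes were 18.7% and 15.3%. Ctsg, Mpo and Prtn3, genes of primary granules, rose by 1.91, 1.003 and 0.89, whereas Mmp8, Ltf and S100a8, genes of later neutrophils, differed by -1.61, -1.38 and -1.38. The summed signal of this list was 182 to 301 in control and 246 to 305 in Atg5f/f;Vav arrays, in multiples of the 75th percentile. The part of the neutrophil content in the Csf3r values was not tested.

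Neither probe of Il6ra passed the test. Its brightest probe, at base 2475 (chr3:89674054-89674113 on mm9), gave 2.51, 2.79 and 2.71 in control and 2.76, 2.62 and 2.24 in Atg5f/f;Vav arrays, with overlap. The difference was -0.13 (95% interval -0.52 to 0.26, adjusted p = 0.557 by limma), and at base 1208 it was -0.36 (95% interval -0.86 to 0.15, adjusted p = 0.218 by limma). Il6st, which encodes the partner chain gp130, had a difference of -0.06 by its brightest probe (adjusted p = 0.829 by limma) and fell by 0.61 by a dimmer one (adjusted p = 0.0167 by limma), so its probes disagreed as well. Without control replicate 1 or 2 the dimmer probe had an adjusted p of 0.0697 or 0.0695. Il6, the gene for the ligand, was not well above background on any control array (-7.06, -7.06 and -7.30) and was well above it on all 3 Atg5f/f;Vav arrays (-4.62, -3.82 and -3.61), which is at least 6.48-fold higher (adjusted p = 0.00513 by limma, from a test it entered only through those arrays). A bound of this kind sets the dim arrays at the higher of their own signal and the lowest signal that was well above background there. With normexp background correction, whose offset of 50 draws dim signals together, the Il6 difference was 0.74 (adjusted p = 0.00692 by limma).

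Csf1r, the receptor for M-CSF, was measured by 2 probes that pointed in opposite directions, neither past the threshold. The probe at base 3806 was 1.64, 2.09 and 2.18 in control and 2.30, 2.28 and 2.33 in Atg5f/f;Vav arrays, a difference of 0.33 (95% interval -0.04 to 0.71, adjusted p = 0.138 by limma). The probe at base 1841 was -0.21, -0.24 and -0.27 against -0.60, -0.33 and -0.28, a difference of -0.16 (adjusted p = 0.327 by limma). With the percentile over the probes that every array detected the latter was -0.37 (adjusted p = 0.0417 by limma). In contrast, all 3 probes of Csf1, the gene for M-CSF, were called higher, by 0.87 (adjusted p = 0.0123), 1.52 (adjusted p = 0.00548) and 1.53 (adjusted p = 0.0137) in limma. The brightest was -1.65, -1.38 and -1.63 in control and -0.71, -0.72 and -0.63 in Atg5f/f;Vav arrays. Its adjusted p was 0.063 without control replicate 1, and that of the dimmest was 0.0618 without control replicate 2. With normexp the 2 dimmer probes, each well above background on 1 of 3 control arrays, differed by 0.58 and 0.46. Both entered the test mainly through the Atg5f/f;Vav arrays, so their calls add no support to that of the brightest probe. Il34, for the other ligand of this receptor, was not well above background on any array.

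Of the 12 monocyte and macrophage genes listed beside Csf1r, 9 were tested, 4 were called higher and 1 lower. Among all genes 18.7% were called higher and 15.3% lower. Ly86, Cx3cr1 and Irf8 rose by 1.79, 1.61 and 1.49, while Cd5l, a macrophage gene, fell by 1.95. Of the complement genes that mark tissue macrophages, C1qa and C1qc were not tested and C1qb differed by 0.24 (adjusted p = 0.308 by limma). The summed signal of the 9 genes was 3.99 to 6.96 in control and 9.89 to 12.5 in Atg5f/f;Vav arrays. The part of monocytic cells in the Csf1r values was not tested.

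Tek, the angiopoietin receptor Tie2, had the largest negative difference among the brightest probes but a wide spread. Its probe at base 3895 (chr4:94540861-94540919 on mm9) gave -1.94, -2.10 and -2.29 in control and -2.28, -2.20 and -3.38 in Atg5f/f;Vav arrays, and 1 array in the latter group stood well below the rest. The difference was -0.52 (95% interval -1.26 to 0.23, adjusted p = 0.23 by limma), and -0.13 without replicate 3 of Atg5f/f;Vav. The related orphan receptor gene Tie1 showed the same low array, with -0.46, -0.14 and -0.36 against -0.94, -1.02 and -2.27. Its difference of -1.08 (SE 0.35) had an adjusted p of 0.0501 by limma, and without replicate 3 of Atg5f/f;Vav it was -0.66 with an adjusted p of 0.0199, or -1.32 with an adjusted p of 0.0382 without replicate 1 of that group. It also passed with normexp (-0.85, adjusted p = 0.0164), the percentile over the probes that every array detected (-1.29, adjusted p = 0.0357), a filter on all 6 arrays (adjusted p = 0.0354) and an intensity trend (adjusted p = 0.0283). The ligand genes Angpt1 and Angpt2 differed by -0.38 (adjusted p = 0.201) and -0.03 (adjusted p = 0.89) in limma.

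Marker genes of both cell types known for Tek were examined beside it. Of 10 stem cell genes 7 were called lower and 0 higher, where 15.3% of all genes were lower and 18.7% higher. The largest falls were those of Mecom (1.75), Hlf (1.65) and Procr (1.56). Of 9 endothelial genes 8 were tested, 3 were called lower (Cldn5, Kdr and Emcn, by -2.65, -1.42 and -1.36) and 1 higher (Plvap, by 0.58), while Cdh5, which defines the lineage, was not well above background on any array. The summed signal of the stem cell genes was 115 to 131 in control and 61.6 to 99.998 in Atg5f/f;Vav arrays, and that of the endothelial genes was 94.0 to 111 and 56.0 to 103. Their part in the Tek values was not tested.

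The probes of Il1rl1 fall on its long and its short transcript. The brightest probe lies at base 5226 of the long variant, which encodes the membrane-bound receptor ST2L (chr1:40522187-40522246 on mm9), and was -1.01, -1.01 and -0.01 in control and -0.17, 0.46 and 1.06 in Atg5f/f;Vav arrays. Control replicate 3 stood above the other 2 control arrays and above 1 of the Atg5f/f;Vav arrays. The difference of 1.13 (SE 0.38) did not pass, with an adjusted p of 0.0584 by limma, but it passed without control replicate 3 (1.46, adjusted p = 0.0381) and without replicate 1 of Atg5f/f;Vav (1.43, adjusted p = 0.0323). It also passed with normexp (1.01, adjusted p = 0.0252), with an intensity trend (adjusted p = 0.0335) and with a filter on all 6 arrays (adjusted p = 0.0422). The mean of all 3 probes, the short variant's included, passed too (1.48, adjusted p = 0.0344). That mean adds no support, since the short variant's probe was not well above background on any control array. A second probe of the long variant, at base 3053, differed by 0.70 (adjusted p = 0.194 by limma), or by 1.07 (adjusted p = 0.0466) without replicate 1 of Atg5f/f;Vav.

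The probe of the short variant, which encodes the soluble decoy form, was not well above background on any control array (-6.52, -5.94 and -5.63) and was on all 3 Atg5f/f;Vav arrays (-4.32, -3.45 and -2.44). It starts at base 2583 of that variant (chr1:40504769-40504828 on mm9), and its signal was 6.17-fold higher (adjusted p = 0.0159 by limma). The control signals lay above the lowest signal well above background on their arrays, so the bound described for Il6 equals this ratio of signals. Neither is a measured change, since the probe was not well above background in control. Because the probe entered the test only through the group where it was bright, this p adds no support to the difference. The adjusted p was 0.0663 without control replicate 1 and 0.0698 without control replicate 2. With normexp the difference was 0.67 (adjusted p = 0.0518 by limma). With no measured level of the short variant in control, no change in the ratio of the 2 forms can be given. The partner chain Il1rap differed by -0.17 (adjusted p = 0.252 by limma), and Il33, for the ligand, was not tested because it was well above background on 2 of 6 arrays.

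Of 10 mast cell, basophil and eosinophil genes listed beside Il1rl1, 1 was called higher and 3 lower, against 18.7% and 15.3% of all genes. Ms4a2, the beta chain of the high-affinity IgE receptor, rose by 2.96, whereas the mast cell and basophil protease genes Cma1, Prss34 and Tpsb2 differed by -2.01, -1.25 and -1.06. The summed signal ran from 15.5 to 38.7 in control and from 11.2 to 17.3 in Atg5f/f;Vav arrays. The part of such cells in the Il1rl1 difference was not tested.

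**Figure D3:**
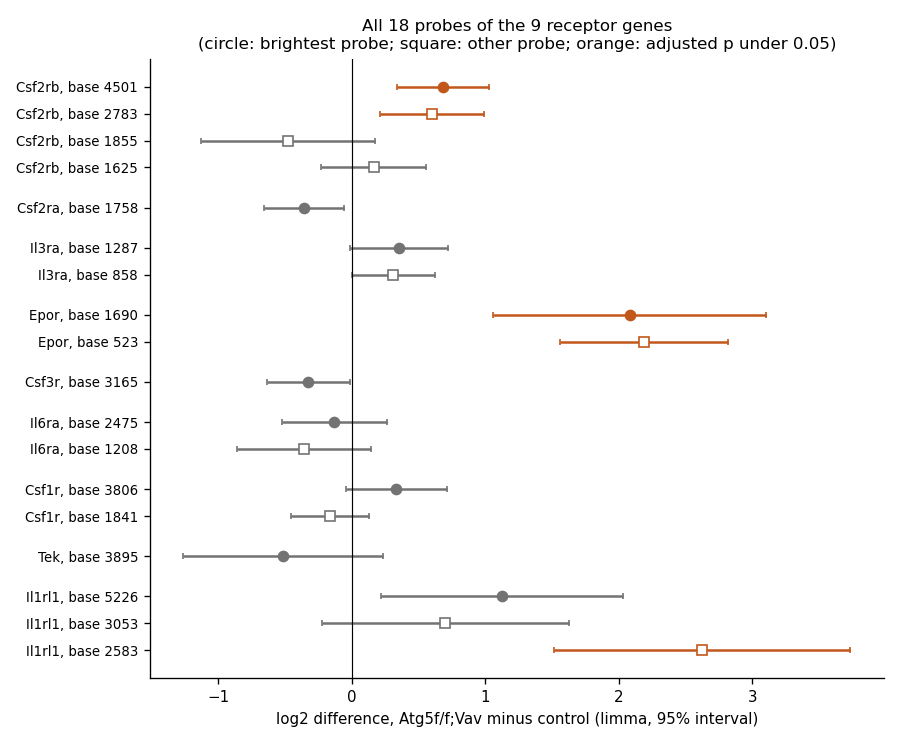
Log2 difference with its 95% interval by limma (x axis) for each of the 18 probes, named by gene and start base in the transcript (y axis), with circles for the brightest probe of a gene, squares for the others and orange for an adjusted p under 0.05. Both Epor probes lie near 2, the dimmer one being well above background on 1 of 3 control arrays. Of the Csf2rb probes 2 of 4 are called. Of the Il1rl1 probes only that of the short variant is called. It was at background on every control array, so that its point and interval are not a measured change.

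Receptors of other cytokines were looked at beside these 9 genes. Of 9 such genes, 7 were tested and 0 passed in either direction by their brightest probe in limma, with 1 higher and 2 lower at an unadjusted p under 0.05 (1 and 1 by the methods' t-test). Kit, the stem cell factor receptor and a marker of the sort, differed by -0.38 (adjusted p = 0.0563). Its 2 dimmer probes were called lower, by 0.67 and 0.62 (adjusted p = 0.0207 and 0.0231 by limma). Flt3 differed by -0.87 (adjusted p = 0.0676), with a dimmer probe that fell by 0.85. The brightest probes of Kit and Flt3 passed as lower with quantile normalisation (adjusted p = 0.0272 and 0.047), normexp (0.0476 and 0.0394), the percentile over the probes that every array detected (0.0230 and 0.0432), a filter on all 6 arrays (0.0457 and 0.0499) and an intensity trend (0.0261 and 0.0373), and without replicate 1 of Atg5f/f;Vav (0.0384 and 0.0198). Il11ra1 differed by -0.34, Il7r by -0.02 and Il2rg by 0.32, and Lifr and Osmr were not tested. Il2rg passed as higher with normexp (adjusted p = 0.0430), an intensity trend (0.0317) and without replicate 3 of Atg5f/f;Vav (0.0390). Of the 10 ligand genes 4 were tested, and the 2 called, Csf1 and Il6, were both higher, where 18.7% of all genes were. Il6 entered the test only through the Atg5f/f;Vav arrays, so its call adds no support to this count. The genes for erythropoietin, GM-CSF, G-CSF and IL-3 (Epo, Csf2, Csf3 and Il3) were not well above background on any array, so no level of these ligands can be given.

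**Figure D4:**
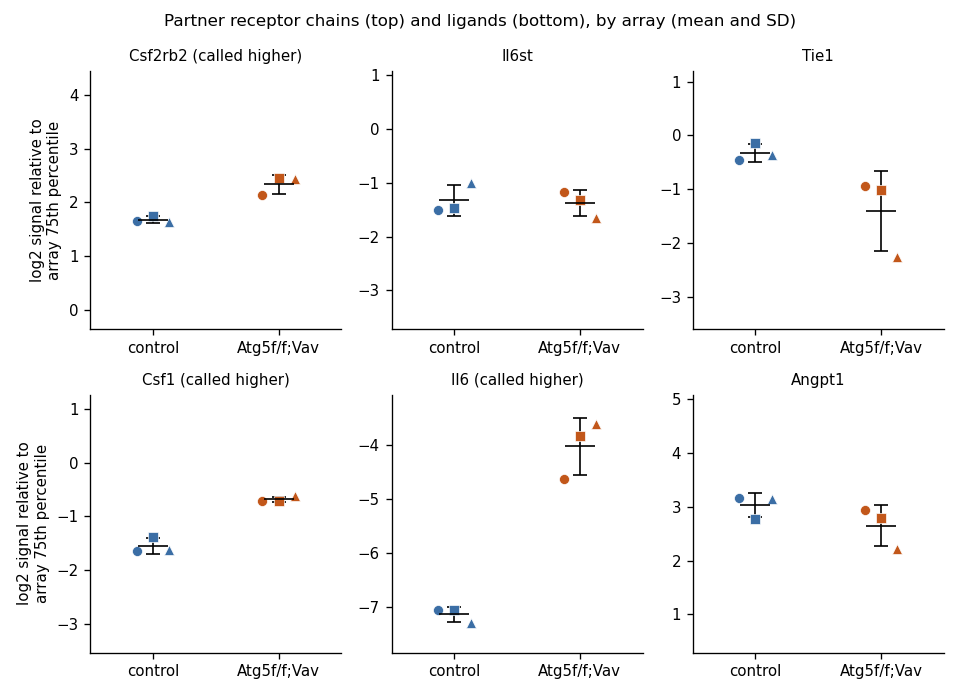
Log2 signal relative to the array's 75th percentile for 3 partner receptor chains (top) and 3 ligands (bottom), with a point per array and bars for the mean and SD of 3 arrays. Csf2rb2, Csf1 and Il6 were called higher, Il6 from a signal not above background in control, and for Tie1 1 Atg5f/f;Vav array lies at -2.27, below the others.

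Downstream of the receptors, Stat5a and Stat3, which relay erythropoietin, IL-3 and IL-6 signals, differed by 0.06 and 0.08 by their brightest probes, with a dimmer Stat5a probe called higher by 0.37 (adjusted p = 0.0438 by limma). The feedback inhibitors were split, with 2 of 9 higher and 2 lower. Socs1 and Socs3 rose by 1.31 and 0.80, while Socs2 and Cbl, an E3 ligase for activated receptors, differed by -1.06 and -0.35. Of 12 adaptors and effectors, 3 were called higher and 0 lower, with Myd88 (0.57) and Ptpn11 (0.37) among them. The call of Ptpn11 was lost with any 1 array left out (adjusted p = 0.0605 to 0.133), and with quantile normalisation it differed by 0.06 (adjusted p = 0.634). These lists were chosen with earlier results of these data known, and of all genes 34.1% were called.

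Among genes of the sorted cell type, Cd34, Kit and Flt3 were well above background on all arrays. Of the 6 marker genes of the gates, by their brightest probes, Ly6a, which encodes Sca-1 itself, was called higher, by 1.57, and 0 were lower. Dimmer probes of Kit were called lower, as given above. Other markers were spread, where 34.1% of all genes were called in either direction. Megakaryocyte genes had 2 of 8 higher, such as Itga2b (1.17), and 3 lower, such as Ppbp (-2.28). Of 8 stromal genes 6 were tested and 3 fell, with Col1a1 and Col1a2 bright on control replicates 2 and 3 alone among the 6 arrays. Rora was the 1 gene lower of 7 tested T, NK and innate lymphoid genes, and Cd79a the 1 higher of 7 B cell genes. Between 53.6 and 59.9% of spots were well above background, with the 3 Atg5f/f;Vav arrays below the 3 control arrays. All arrays shared a slide, and control occupied one row of it and Atg5f/f;Vav the other, so that row and genotype cannot be told apart. The single Atg5 probe, which starts at base 2251, gave 1.10, 0.93 and 1.06 in control and 1.46, 1.51 and 1.74 in the Atg5f/f;Vav arrays. Because it was not determined whether it lies within the deleted part, it does not check the labels, and each direction above rests on them. Leaving out control replicate 1 or 2 reduced the 11023 probes called to 331 or 251, and of 59 probes of other genes that were named by rule and called, 9 or 7 still passed. With any other array left out, 7718 to 10304 probes passed.

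**Figure D5:**
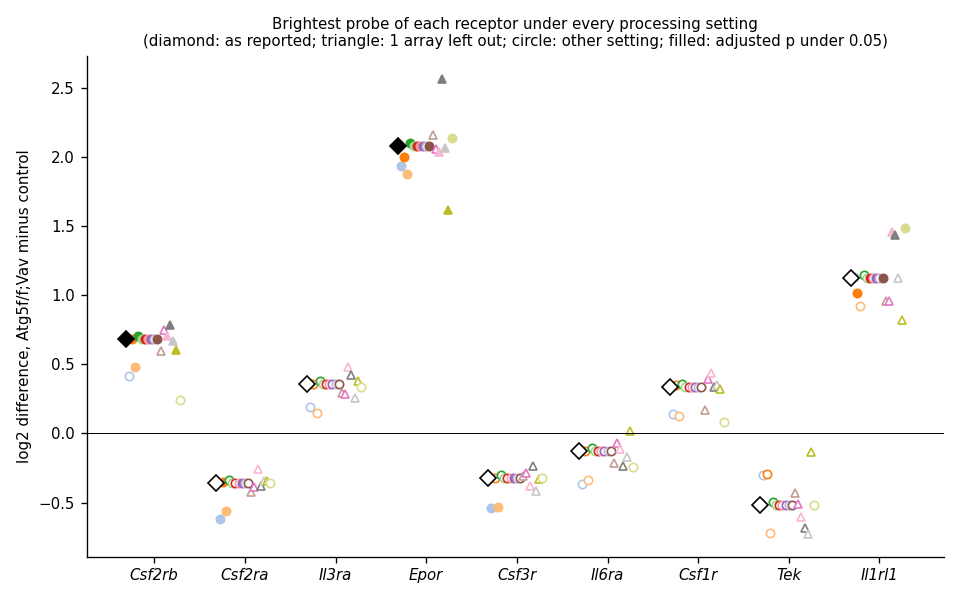
Log2 difference of each receptor's brightest probe (y axis) under every processing setting, by gene (x axis), with a diamond for the value as reported, triangles for 1 array left out, circles for other settings and filled symbols for an adjusted p under 0.05. Epor stays between 1.62 and 2.56, Csf2ra and Csf3r are below 0 in every setting and filled in a few, and Il6ra crosses 0.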

How the data were processed

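RNA of LSK cells from 3 control and 3 Atg5f/f;Vav samples was hybridised to 1-colour Agilent arrays with 60-mer probes. The authors' scanner files hold an intensity for each spot, corrected for background by Agilent Feature Extraction 12.0.3.1, and the deposited table holds that signal divided by a constant for each array. Probe positions follow mm9, the build of the array design, and promoter windows are those of RefSeq on GRCm38.p6. The exon or UTR of a probe was not determined.

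The log2 intensity minus the 75th percentile of the 59305 non-control spots was computed for each array. Spots flagged as outliers (64 to 81 per array) were left out, spots of a probe were averaged, and no spot was saturated. A probe was kept where 3 or more of the 6 arrays had it well above background. The 32075 probes kept were fitted with limma 3.58.1 in R 4.3.3 (functions lmFit and eBayes, 2-sided tests), and p-values were adjusted over all of them by the method of Benjamini and Hochberg, with a threshold of 0.05. The number of arrays limits the precision. The brightest probe stood for a gene. Ratios of 2 probes within an array were compared by exact permutation tests. Steps were tested on simulated data.

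All probes of the 9 receptors were reported. Of each other list at most 3 called genes each way were named, and all partner chains, other cytokine receptors and ligands. Some genes of these lists are not reported here. The members and lists were chosen with earlier results of these data known. Genes nearest to the most changed receptor were found by distance. The alternatives were the deposited values, normexp (offset 50), quantile normalisation, the percentile over the probes that every array detected, an intensity trend, outlier spots kept, no filter on dim probes or one on all 6 arrays, the mean of a gene's probes, a block for the replicate number, the methods' t-test and leaving out each array in turn.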

Additional observations from a re-analysis of the deposited data

How the results depend on the processing

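The count of probes called was 4538 without a filter on dim probes, 0 with the methods' t-test after Benjamini-Hochberg adjustment (13541 at an unadjusted p under 0.05, against 15504 in limma), and 251 to 10304 with 1 array left out. The split of 5540 higher and 5483 lower became 3360 and 10105 with the percentile over the probes that every array detected, and the cause was not tested. Receptors called higher numbered 2 as reported, 1 with quantile normalisation (Epor) and 0 with the methods' t-test. They numbered 3 with normexp, the filter on all 6 arrays, the intensity trend and the replicate block (Il1rl1 added each time). With the mean of a gene's probes they numbered 2 (Epor and Il1rl1, Csf2rb being lost), the Il1rl1 mean including the short variant. With 1 array left out they numbered 0 to 3. Receptors called lower numbered 0 as reported, 2 with quantile normalisation, with that percentile and with an intensity trend (Csf2ra and Csf3r each time), and 1 with normexp (Csf2ra). The methods' t-test gave an adjusted p of 0.0743 for Epor and 0.0578 for Csf2rb. The sign of Epor, Csf2rb, Csf2ra, Csf3r, Il3ra, Csf1r, Tek and Il1rl1 by the brightest probe held in every setting run.

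Signs turned for small differences. With the percentile over the probes that every array detected, the Csf2rb probe at base 1625 was -0.0434 and Il5ra -0.0609. With quantile normalisation Il6st was 0.0655, the dimmer Il1rap probe 0.0731 and Il7r 0.0200. Il7r was 0.000774 with normexp and 0.00281 with the deposited values. With 1 array left out, Il6ra ran from -0.239 to 0.0208, Il6st from -0.158 to 0.106, Il7r from -0.396 to 0.389, Il5ra from -0.0273 to 0.486 and Angpt2 from -0.131 to 0.0883. Over the 18 receptor probes, 254 alternative values kept sign and call, 22 lost the call, 17 gained it and 2 turned. The replicate numbers were not taken as pairs, since deviations from the group means correlated at -0.07, 0.19 and 0.11 for equal numbers. With the replicate number as a block, 5261 probes were higher and 4911 lower, Epor and Csf2rb stayed called, and Il1rl1 passed at an adjusted p of 0.0206 in limma. No count of reads exists on arrays, and probes near background, such as the short Il1rl1 variant and Il6 in control, have no measured level there.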
